A study of Mus musculus with 14 samples.

Results

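The 10 genes described here encode the machinery that decides whether a cell in G1 phase commits to DNA replication. They are the 3 D-type cyclins *Ccnd1*, *Ccnd2* and *Ccnd3*, the kinases *Cdk4* and *Cdk6*, the CDK inhibitors *Cdkn1a* (p21), *Cdkn1b* (p27), *Cdkn1c* (p57) and *Cdkn2c* (p18), and the retinoblastoma gene *Rb1*. They were chosen by symbol, and all 10 were found among the 23284 symbols of the count files. RNA-seq was performed on forelimb buds of mouse embryos of the NMRI strain, with both forelimbs of 1 embryo pooled per library. Wild-type buds (*Smad4*+/+ *PrxCre*T/+) were compared with *Smad4*Δ/Δc buds (*Smad4*Δ/Δc *PrxCre*T/+) at 30 somites (E10.0) and at 35 somites (E10.5), with 3 wild-type and 4 mutant embryos per stage. Mutants carried 1 constitutive null allele and 1 floxed allele, both genotypes carried the Cre transgene, and Cre under *Prrx1* control acts in the limb mesenchyme. Ectoderm, vessels, blood and immigrating muscle precursors of a mutant bud therefore keep the floxed copy of *Smad4* alone, whereas those of a wild-type bud have both copies.

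D-type cyclins bind and activate CDK4 and CDK6, which phosphorylate RB1 and thereby release E2F transcription factors that switch on genes for DNA synthesis. CDKN2C, of the INK4 family, blocks CDK4 and CDK6 themselves, whereas CDKN1A, CDKN1B and CDKN1C, of the CIP/KIP family, mainly restrain cyclin-CDK2 complexes. In limb buds, growth factors from the ridge and the mesenchyme keep cells dividing through this step, and cartilage progenitors later leave the cycle while they differentiate, for which *Cdkn1c* is known to be required.

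Between 34066930 and 61691258 reads per library were counted on genes. *Smad4* stood at 152 to 169 CPM (reads on a gene, scaled to the same total for every library with TMM factors) in the 6 wild-type libraries and at 32.9 to 46.0 CPM in the 8 mutant libraries (log2 fold changes of -2.02 and -2.16 at the earlier and later stage). All 8 mesenchyme markers, such as *Prrx1* and *Tbx5*, were found, and none was at 0 in any group. Mutant replicates 4 and 5 of both stages stood apart: the ribosomal RNA precursor *Rn45s* took 1.72% to 8.05% of their reads on genes, against 0.151% to 0.478% in the 10 other libraries. All 4 are mutants, and no wild-type library was of this kind. In a comparison of all mutants with wild type, their share and that of the genotype are therefore mixed. Both stages also held mutants low in *Rn45s*, beside which these 4 can be set. The labels do not say whether they were prepared apart, and values without them are given where a result rests on them. In these bulk samples, fewer cells of a type and less RNA per cell cannot be told apart.

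Per length of exon, the kinase *Cdk4* was the most abundant transcript of the group in all 14 libraries, at a mean level of 298 CPM per kb. *Ccnd2* (97.6 CPM per kb), *Cdkn1c* (87.2), *Ccnd1* (84.3) and *Ccnd3* (61.3) followed within a narrow band. Then the level dropped by an order of magnitude to *Cdkn1b* (6.57 CPM per kb), *Cdkn1a* (4.70), *Cdk6* (3.03) and *Rb1* (2.63), and *Cdkn2c* came last at 0.349 CPM per kb, with only 20 to 65 reads per library. Neighbours in this order were not all distinct. The level of *Cdkn1c* exceeded that of *Ccnd1* in 7 of 14 libraries, their ranges overlapped in 3 of 4 groups, and those of *Ccnd2* and *Cdkn1c* overlapped in 2 groups. *Cdk6* and *Rb1* overlapped in 3 of 4 groups. *Cdkn1b* and *Cdkn1a*, and *Cdkn1a* and *Cdk6*, each overlapped in 1 group, whereas *Cdk4*, *Ccnd1*, *Ccnd3* and *Rb1* lay above their next neighbour in all 14 libraries and overlapped it in none.

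Within each functional class, 1 gene or a balanced set carried the transcripts. *Cdk4* made up 98.8% to 99.1% of the per-length level of both kinases on group average, and *Cdk6* the rest. The D cyclins were more even, with *Ccnd2* at 37.0% to 43.2%, *Ccnd1* at 33.3% to 35.3% and *Ccnd3* at 23.6% to 27.8% of their summed level. Among the 4 inhibitors, *Cdkn1c* took 86.6% in wild type at E10.0 and 90.3% in mutants at E10.5, and *Cdkn2c* less than 1% throughout. Lengths are exon unions of the mm9 annotation, which places *Ccnd1* (152115836 to 152125774) and *Cdkn1c* (150644255 to 150646955) on chromosome 7, *Ccnd2* (127075797 to 127101066) and *Cdkn1b* (134870419 to 134875531) on chromosome 6, and *Ccnd3* (47642000 to 47736632) and *Cdkn1a* (29227924 to 29237667) on chromosome 17. *Cdk4* lies on chromosome 10 (126500590 to 126504976), *Cdk6* on chromosome 5 (3343893 to 3523218), *Cdkn2c* on chromosome 4 (109333481 to 109339794) and *Rb1* on chromosome 14 (73583480 to 73725629). In that annotation, exons of other genes overlap 21.3% of the exon bases of *Ccnd1* (*Oraov1*), 18.6% of *Cdk4* (*Tspan31*), 15.7% of *Ccnd3* (*Bysl*), 14.9% of *Rb1* (*Lpar6* and *Rcbtb2*) and 1.61% of *Cdk6* (*Gm17590*). The libraries were unstranded, so reads on shared bases could not be assigned to a gene by strand. The 4 inhibitors and *Ccnd2* share none.

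The sequence just before the start of transcription is shown for *Cdk4*, the most abundant of these transcripts, and for *Cdk6*, *Cdkn1a*, *Cdkn1b* and *Cdkn2c*, which were called in comparisons below. Each is the 250 bases before a RefSeq start in GRCm38.p6, on the plus strand for all but *Cdkn2c*: chr10:127063285-127063534 for *Cdk4*, chr5:3343643-3343892 for *Cdk6*, chr17:29090729-29090978 for the upstream of 2 *Cdkn1a* starts, chr6:134920151-134920400 for *Cdkn1b* and, on the minus strand, chr4:109666757-109667006 for the upstream of 2 *Cdkn2c* starts. Capitals mark matches, on either strand, to the E-box CACGTG that MYC-type factors bind, to the GC-rich motif GGCGCC that SMAD proteins can bind, to the E2F motifs TTCCCGC and TTGGCGC, and to CATG repeated after 6 bases, the core of a p53 element. A TTGGCGC followed by C would also hold the SMAD motif.
*Cdk4*: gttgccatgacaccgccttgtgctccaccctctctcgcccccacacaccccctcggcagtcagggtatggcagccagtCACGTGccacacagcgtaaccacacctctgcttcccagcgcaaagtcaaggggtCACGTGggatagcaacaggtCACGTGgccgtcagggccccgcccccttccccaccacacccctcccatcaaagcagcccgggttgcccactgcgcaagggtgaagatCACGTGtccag
*Cdk6*: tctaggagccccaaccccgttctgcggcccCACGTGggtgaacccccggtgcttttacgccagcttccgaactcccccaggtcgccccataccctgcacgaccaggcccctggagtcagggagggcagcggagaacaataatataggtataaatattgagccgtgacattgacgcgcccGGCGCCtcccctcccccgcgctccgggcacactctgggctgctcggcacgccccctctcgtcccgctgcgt
*Cdkn1a*: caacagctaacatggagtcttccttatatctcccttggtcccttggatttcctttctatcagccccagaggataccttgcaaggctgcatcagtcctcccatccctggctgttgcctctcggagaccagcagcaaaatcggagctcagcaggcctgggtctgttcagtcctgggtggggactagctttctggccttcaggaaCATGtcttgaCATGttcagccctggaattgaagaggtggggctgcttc
*Cdkn1b*: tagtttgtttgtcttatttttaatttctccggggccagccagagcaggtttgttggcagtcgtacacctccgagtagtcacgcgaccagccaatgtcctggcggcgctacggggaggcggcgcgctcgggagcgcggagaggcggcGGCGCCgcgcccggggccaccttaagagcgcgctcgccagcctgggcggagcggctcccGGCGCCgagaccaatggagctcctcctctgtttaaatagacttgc
*Cdkn2c*: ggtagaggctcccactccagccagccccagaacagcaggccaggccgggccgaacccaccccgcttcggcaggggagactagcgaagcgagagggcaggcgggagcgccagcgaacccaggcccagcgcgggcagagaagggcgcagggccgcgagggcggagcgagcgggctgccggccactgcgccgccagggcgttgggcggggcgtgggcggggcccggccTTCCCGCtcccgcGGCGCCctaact
*Cdk4* held 4 E-boxes in its 250 bases, as did 0.0213% of the 32851 windows of the same length over all genes, while 6.02% held at least 1. *Cdk6* held 1 E-box and 1 GC-rich motif, and *Cdkn1b* held 2 GC-rich motifs, which 9.59% of windows held at least once. The p53-type pair in the *Cdkn1a* window was present in 0.49% of windows. *Cdkn2c* held 1 GC-rich motif and the only E2F motif in these windows, and 5.62% of all windows held an E2F motif at least once. The windows of the second *Cdkn1a* and *Cdkn2c* starts held none of these motifs. These matches describe the letters and say nothing of binding. Of the other members, *Ccnd3* had 2 windows, not shown, with no match, and *Ccnd1*, *Ccnd2*, *Cdkn1c* and *Rb1* had no entry.

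Genotypes were compared first, to ask whether the loss of *Smad4* shifts the G1 machinery. At E10.0, 2 of the 10 genes passed the thresholds of the study's methods (edgeR's exact test, FDR of at most 0.1 and fold change of at least 1.2): *Cdk6* was higher and *Cdkn1b* lower in *Smad4*Δ/Δc buds. Over all 12393 genes tested, 6.61% passed. At E10.5 none of the 10 passed by the exact test, against 3.73% of all genes. An unadjusted *P* under 0.05 in edgeR was seen for 2 of them, and for 1269 of the 12393 genes. Of the 10, edgeR's quasi-likelihood test called 2 at the earlier and 0 at the later stage, beside 601 and 341 of the 12393 genes. DESeq2 called 2 and 0, beside 995 and 507 genes. Without mutant replicates 4 and 5, 2 genes were called at E10.0 (*Cdk6* and *Ccnd3*), where 16.4% of all genes then passed, and 1 at E10.5 (*Ccnd3*), beside 4.27% of all genes. The median log2 fold change of the 10 genes was -0.04 at E10.0 and -0.05 at the later stage, beside -0.02 and -0.01 over all genes tested. Mesenchyme markers also moved with genotype. Their sum was 1513 to 1718 CPM in wild type and 1286 to 1547 CPM in mutants at E10.0, where 5 of the 8 were called lower (median log2 fold change -0.32). At E10.5 it was 1738 to 1867 and 1546 to 1736 CPM, with 4 called lower and 1 higher (median -0.34). The paper counts the limb mesenchyme genes *Lhx2* and *Prrx2* among the targets of SMAD4 and finds both reduced in mutants. A lower sum of mesenchyme markers is therefore not a measure of fewer mesenchyme cells. The part of these markers in the genotype values that follow was not tested.

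**Figure D1:**
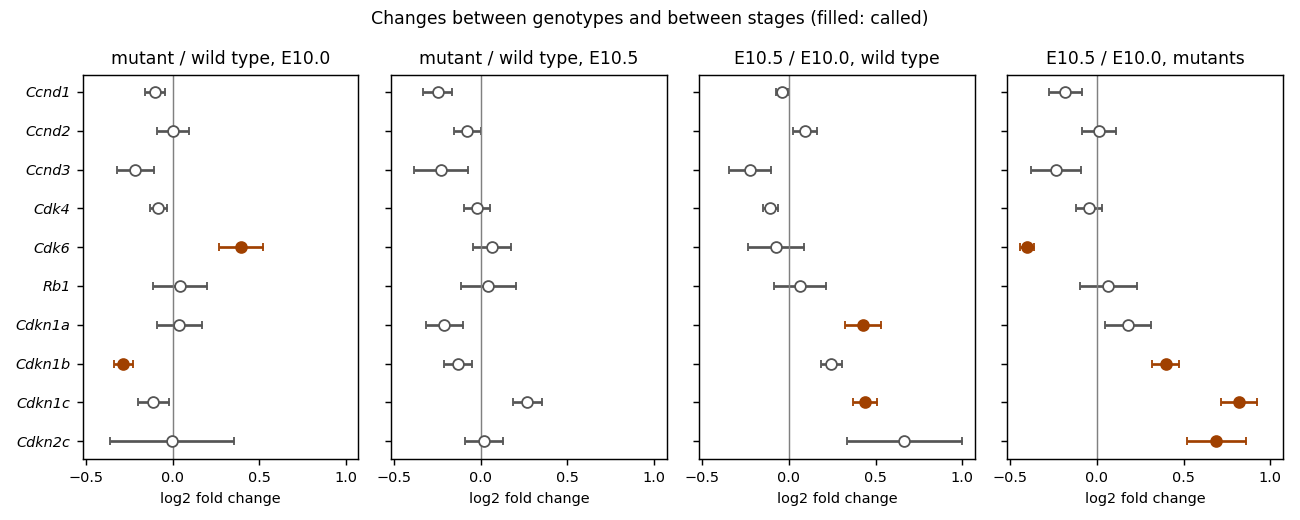
Log2 fold change of each gene (points) with its standard error over embryos (bars) in the 4 comparisons, filled where the gene was called. Filled points are *Cdk6* and *Cdkn1b* between genotypes at E10.0, *Cdkn1a* and *Cdkn1c* between stages in wild type, and *Cdk6*, *Cdkn1b*, *Cdkn1c* and *Cdkn2c* between stages in mutants.

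*Cdk6*, the minor kinase partner of the D cyclins here, stood at 10.8, 11.9 and 8.89 CPM in wild-type replicates 1, 2 and 3 at E10.0. Mutant replicates 1, 3, 4 and 5 had 13.9, 14.4, 13.2 and 13.8 CPM. All 4 mutants lay above all 3 wild-type embryos; 17.8% of all genes separated the genotypes completely in either direction. The log2 fold change was 0.39 (s.e., the standard error over embryos, 0.13, adjusted *P*=0.0469 by the exact test), a 1.31-fold higher level. The call was lost when wild-type replicate 3, the lowest, was left out (0.30, adjusted *P*=0.423 by edgeR). It was also lost, with the difference as large as before, without wild-type replicate 1 (0.41, adjusted *P*=0.121 by edgeR) or mutant replicate 5 (0.40, adjusted *P*=0.102 by edgeR). It was still called without both mutant replicates 4 and 5. At E10.5, *Cdk6* stood at 10.4, 8.64 and 11.0 CPM in wild-type replicates 1, 2 and 3 and at 10.2, 10.8, 10.9 and 9.97 CPM in mutant replicates 1, 2, 4 and 5. These ranges overlapped (log2 fold change 0.06, s.e. 0.11). Of 8 mesothelium and body wall markers 7 were found, none at 0 in every library, and their sum was also higher in mutants at E10.0. There, 3 of the 5 tested were called higher, and log2 fold changes ran from -0.17 to 3.35. The 7 markers summed to 8.50 to 11.8 CPM in wild type and 16.0 to 32.2 CPM in mutants at that stage. At E10.5 they summed to 11.4 to 13.98 and 6.42 to 10.4 CPM. Their part in the *Cdk6* values was not tested.

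*Cdkn1b*, which binds cyclin-CDK complexes and holds cells in quiescence, showed the opposite direction. Wild-type replicates 1, 2 and 3 at E10.0 had 29.8, 28.0 and 30.9 CPM. Mutant replicates 1, 3, 4 and 5 had 24.4, 25.2, 22.7 and 24.7 CPM. All of them lay below the wild type, a complete separation that 17.8% of all genes showed in either direction. The log2 fold change was -0.28 (s.e. 0.05, adjusted *P*=0.073 by the exact test), a level 17.9% lower. With a fold change of 1.22 and an adjusted *P* near 0.1, the gene sat close to both thresholds, and it was not called under 9 of 14 alternatives, among them those that left out mutant replicate 1, 4 or 5 or wild-type replicate 1 or 3, and the fit without mutant replicates 4 and 5 (log2 fold change -0.24). The direction held in all 14. At E10.5 the values were 33.0, 35.8 and 36.2 CPM in wild-type replicates 1 to 3, beside 34.1, 35.0, 29.1 and 29.4 CPM in mutant replicates 1, 2, 4 and 5, and the ranges overlapped (log2 fold change -0.13, s.e. 0.08).

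Of the D cyclins, none was called between genotypes at either stage. *Ccnd1*, a mitogen-responsive cyclin, came closest at E10.5. It stood at 332, 356 and 335 CPM in wild-type replicates 1, 2 and 3, against 300, 323, 271 and 254 CPM in mutant replicates 1, 2, 4 and 5. All mutants lay below all wild-type embryos, where 13% of all genes separated the genotypes completely in either direction. The log2 fold change of -0.25 (s.e. 0.08) had an adjusted *P* of 0.156 in edgeR. Replicates 4 and 5 were the lowest mutants, and the log2 fold change without them was -0.12. Without mutant replicate 2, the highest, the gene was called (-0.30, adjusted *P*=0.0501 by edgeR). At E10.0, *Ccnd1* stood at 343 to 359 CPM in wild type and at 292 to 351 CPM in mutants (log2 fold change -0.10, s.e. 0.06).

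*Ccnd2*, the most abundant D cyclin, was close between genotypes with all libraries in the fit. Its level was 546 ± 39.9 CPM (SD, n=3) in wild type and 548 ± 52.4 CPM (SD, n=4) in mutants at E10.0, and 583 ± 26.0 and 553 ± 52.9 CPM at E10.5. Log2 fold changes were 0.00 (s.e. 0.09) and -0.08 (s.e. 0.08), and 0.13 and 0.05 without mutant replicates 4 and 5. *Ccnd3* was lower in mutants on average at both stages without passing the test. At E10.0 its level was 160, 158 and 168 CPM in wild-type replicates 1, 2 and 3, against 115, 140, 162 and 142 CPM in mutant replicates 1, 3, 4 and 5, so that only mutant replicate 4 reached the wild-type range (log2 fold change -0.22, s.e. 0.11, adjusted *P*=0.344 by edgeR). Later, the wild type reached 162, 131 and 124 CPM, beside 96.6, 119, 130 and 129 CPM in mutant replicates 1, 2, 4 and 5 (log2 fold change -0.23, s.e. 0.15, adjusted *P*=0.512 by edgeR). Without mutant replicates 4 and 5, *Ccnd3* was called lower at E10.0 (log2 fold change -0.33, adjusted *P*=0.0504 by edgeR) and at E10.5 (-0.36, adjusted *P*=0.0807 by edgeR). Other libraries moved it the opposite way. At E10.0 it was -0.12 without mutant replicate 1, the lowest, and at E10.5 it was -0.13 without mutant replicate 1 and -0.10 without wild-type replicate 1, the highest.

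*Cdk4* and *Rb1*, the main kinase and its substrate, were not called. *Cdk4* ranged from 1002 to 1049 CPM in wild type and from 902 to 1046 CPM in mutants at E10.0, and from 899 to 988 and 835 to 1006 CPM at E10.5 (log2 fold changes -0.08 and -0.02, s.e. 0.05 and 0.07). *Rb1* ranged from 13.8 to 16.9 CPM and from 12.7 to 18.3 CPM at E10.0, and from 13.9 to 18.6 and 14.01 to 18.7 CPM at E10.5 (log2 fold changes 0.04 and 0.04, s.e. 0.16 and 0.16). With these errors, a difference of *Rb1* of the size seen for *Cdkn1b* could not be told from the spread between embryos, whereas the values of *Cdk4* were tighter.

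The other 3 inhibitors gave no call between genotypes. *Cdkn1a*, the inhibitor that p53 induces, had 8.39 to 10.1 CPM in wild type and 7.82 to 11.2 CPM in mutants at E10.0 (log2 fold change 0.04, s.e. 0.13), and 11.6 to 13.7 against 9.41 to 11.9 CPM at E10.5 (-0.21, s.e. 0.11, adjusted *P*=0.712 by edgeR). *Cdkn2c*, the INK4 inhibitor, had log2 fold changes of 0.00 (s.e. 0.36) and 0.02 (s.e. 0.11), the former the largest s.e. among the genotype comparisons. *Cdkn1c* at E10.0 overlapped between the genotypes (wild type 128 to 145 CPM, mutants 114 to 138 CPM, log2 fold change -0.11, s.e. 0.09). Without mutant replicates 4 and 5 it was -0.23 with an adjusted *P* of 0.059 in edgeR, below the fold threshold of 1.2. At the later stage the genotypes did not overlap, a complete separation that 13% of all genes showed in either direction. Wild-type replicates 1, 2 and 3 had 174, 187 and 194 CPM, below mutant replicates 1, 2, 4 and 5 with 204, 206, 233 and 248 CPM. That difference of 0.27 on the log2 scale (s.e. 0.08) missed the threshold at an adjusted *P* of 0.154 in edgeR. It passed when mutant replicate 1 (0.32, adjusted *P*=0.0688 by edgeR) or mutant replicate 2 (0.31, adjusted *P*=0.0937 by edgeR) was left out, and was 0.16 without replicates 4 and 5, which were the highest.

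**Figure D2:**
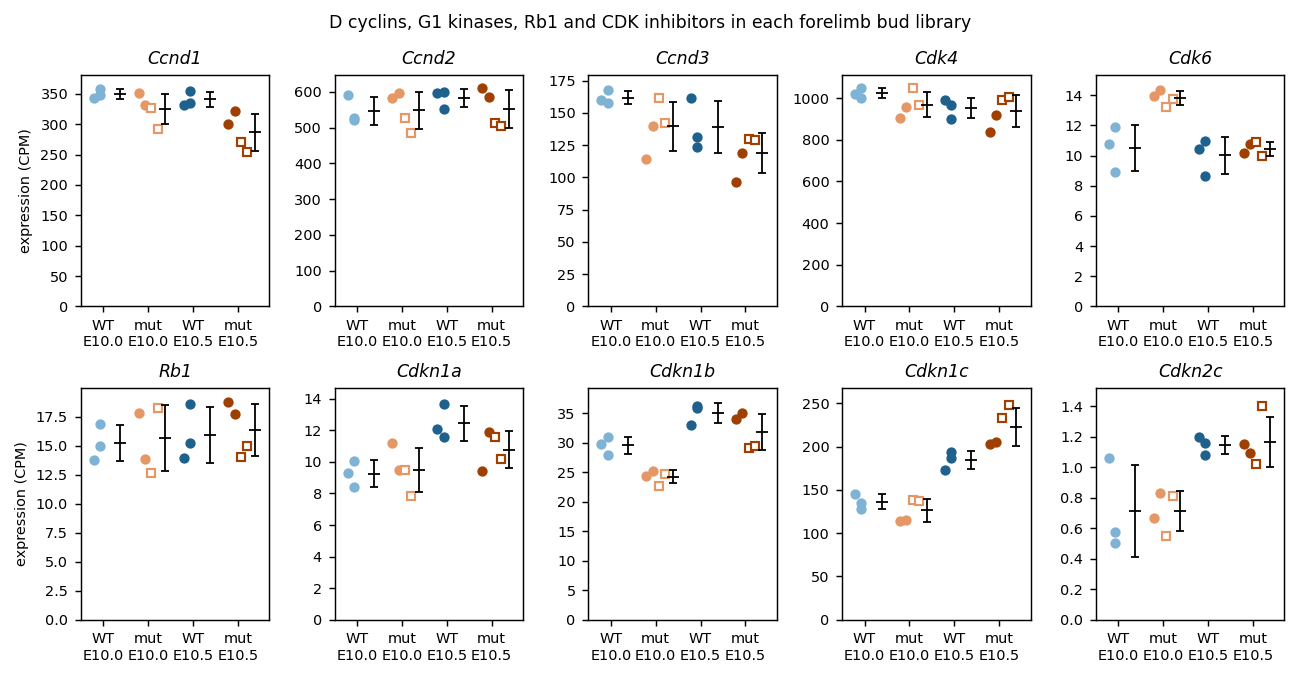
CPM of each gene in every library (vertical axes from 0), with 1 symbol per embryo and the group mean ± SD in black. Open squares are mutant replicates 4 and 5, which were rich in *Rn45s*. *Cdkn1c* rose from 114 to 145 CPM at E10.0 to 174 to 248 CPM at E10.5, and *Cdk6* stood highest in the mutants at E10.0.

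Stages were compared next, within each genotype, to follow the G1 machinery as the bud grows out. Most of the calls fell on the inhibitors. In wild type, 2 of 10 genes were called between E10.0 and E10.5, *Cdkn1a* and *Cdkn1c*, both higher at E10.5. In mutants 4 were called: *Cdkn1b*, *Cdkn1c* and *Cdkn2c* were higher and *Cdk6* lower. Over all genes 10.1% were called in wild type (5.39% higher) and 19.2% in mutants (10.8% higher). *Cdkn1a*, *Cdkn1b* and *Cdkn1c* stood higher in every wild-type library at E10.5 than in any at E10.0, a separation seen for 16.6% of all genes. *Cdkn1b* and *Cdkn1c* did so in mutants, where 11.1% of all genes did. *Cdkn2c* also separated in both genotypes, but it entered the tests only through the E10.5 libraries, where it was higher. In wild type its highest value at E10.0 was 1.06 CPM and its lowest at E10.5 was 1.08 CPM. With mutant replicates 4 and 5 left out, 3 genes were called in each genotype, *Cdkn2c* joining in wild type and dropping out in mutants, beside 14.9% of all genes in wild type and 17.5% in mutants. The median change of the 10 genes was 0.08 on the log2 scale in wild type and 0.04 in mutants, beside -0.01 in both genotypes over all genes.

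*Cdkn1c*, the imprinted inhibitor linked to cell cycle exit of cartilage progenitors, had the firmest change. In wild type it rose from 145, 128 and 135 CPM in replicates 1, 2 and 3 at E10.0 to 174, 187 and 194 CPM at E10.5. The log2 fold change was 0.44 (s.e. 0.07, adjusted *P*=0.00134 by the exact test), or 1.36-fold. In mutants it rose from 114, 116, 138 and 137 CPM in replicates 1, 3, 4 and 5 to 204, 206, 233 and 248 CPM in replicates 1, 2, 4 and 5. That was a log2 fold change of 0.82 (s.e. 0.10, adjusted *P*=1.68e-16 by the exact test), or 1.76-fold. The call stood under all 13 alternatives in wild type (0.40 to 0.49) and all 16 in mutants (0.76 to 0.87). Within the mutants, replicates 4 and 5 lay above the other 2 embryos at both stages, by 1.195-fold at E10.0 and 1.177-fold at E10.5. The difference between the 2 stage changes was 0.38 (s.e. 0.12), with an unadjusted *P* of 0.00902 and an adjusted *P* of 0.616 in edgeR's quasi-likelihood test, so that a larger rise in mutants was not established. Early cartilage markers summed to 335 to 366 CPM in wild type and 302 to 337 CPM in mutants at E10.0, and to 353 to 388 and 352 to 383 CPM at E10.5. All 8 were found and none was at 0 in every library. Of the 6 tested, 2 were called higher and 1 lower with stage in wild type (median log2 fold change 0.11). In mutants 3 were higher and 2 lower (median 0.35). Over all genes, 10.1% and 19.2% were called with stage. The part of these markers in the rise of *Cdkn1c* was not tested.

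*Cdkn1b* rose in mutants from 24.3 ± 1.08 to 31.9 ± 3.07 CPM (SD, n=4), with no overlap between stages (log2 fold change 0.40, s.e. 0.08, adjusted *P*=0.000308 by the exact test). In wild type it went from 29.6 ± 1.49 to 35.0 ± 1.73 CPM (SD, n=3), again without overlap, and the log2 fold change of 0.24 (s.e. 0.06) had an adjusted *P* of 0.146 in edgeR. The same mutant libraries at E10.0 lie behind this rise and behind the lower level against wild type, so the calls are not independent. The difference between the stage changes of the genotypes was 0.15 (s.e. 0.10), with an adjusted *P* of 0.95 in edgeR.

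*Cdkn1a* rose in wild type, from 9.32, 10.1 and 8.39 CPM in replicates 1, 2 and 3 at E10.0 to 12.1, 11.6 and 13.7 CPM at E10.5 (log2 fold change 0.43, s.e. 0.11, adjusted *P*=0.0555 by the exact test). The 1.35-fold change was not called in 4 of 13 alternatives, each with 1 wild-type library left out (E10.0 replicates 1, 2 and 3 and E10.5 replicate 3, with log2 fold changes of 0.36 to 0.49). In mutants, replicates 1, 3, 4 and 5 at E10.0 had 11.2, 9.47, 9.51 and 7.82 CPM, and replicates 1, 2, 4 and 5 at E10.5 had 9.41, 11.9, 11.6 and 10.2 CPM. These overlapped (log2 fold change 0.18, s.e. 0.13, adjusted *P*=0.374 by edgeR). The difference between the genotypes' stage changes was -0.25 (s.e. 0.17) with an adjusted *P* of 0.95 in edgeR, and a genotype dependence was therefore not shown.

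*Cdkn2c* was scarce, with 58, 28 and 23 reads in wild-type replicates 1, 2 and 3 at E10.0 and 50 to 55 reads at E10.5. In CPM it stood at 1.06, 0.573 and 0.506 in wild-type replicates 1, 2 and 3 at E10.0 and at 1.201, 1.08 and 1.16 at E10.5. The log2 fold change of 0.67 (s.e. 0.33) missed the threshold at an adjusted *P* of 0.132 in edgeR, and replicate 1 at E10.0 decided it: without that library the change was 1.08, with an adjusted *P* of 0.0152 in edgeR. In mutants, replicates 1, 3, 4 and 5 at E10.0 had 0.667, 0.831, 0.546 and 0.812 CPM, and replicates 1, 2, 4 and 5 at E10.5 had 1.16, 1.09, 1.02 and 1.40 CPM. The groups did not overlap (log2 fold change 0.69, s.e. 0.17, adjusted *P*=0.0312 by the exact test). *Cdkn2c* entered the tests through the later stage: 1 of 7 libraries at E10.0, none of them mutant, and 7 of 7 at E10.5 reached the 1 CPM that the filter asks of 3 libraries. With no filter on low counts the change in mutants was 0.68 (adjusted *P*=0.0395 by edgeR). The call was lost without mutant replicate 4 at E10.0 (0.59), without mutant replicate 5 at E10.5 (0.60), and without replicates 4 and 5 of both stages (0.59, adjusted *P*=0.272 by edgeR).

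**Figure D3:**
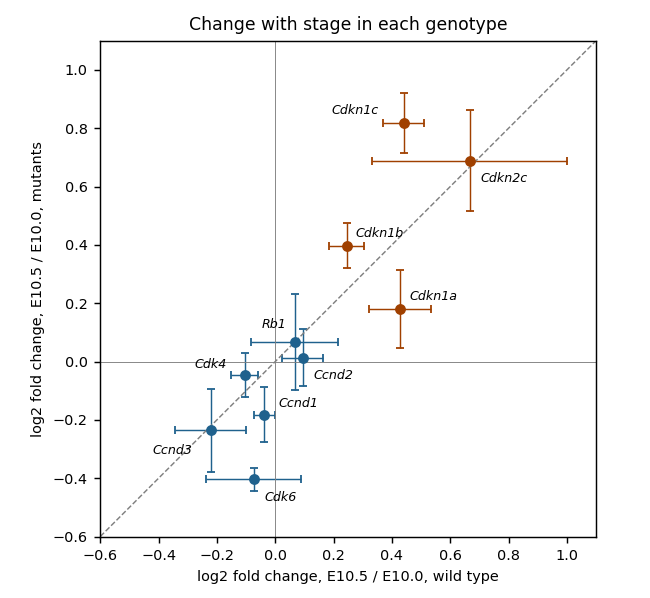
Log2 fold change from E10.0 to E10.5 in wild type (horizontal) and in *Smad4*Δ/Δc mutants (vertical), with standard errors as bars. The 4 inhibitors, in orange-brown, lie right of and above 0, *Cdkn1c* at 0.44 and 0.82, and *Cdk6* lies at -0.07 and -0.40, off the dashed line of equal change.

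*Cdk6* fell in mutants, from 13.8 ± 0.468 to 10.4 ± 0.453 CPM (SD, n=4, log2 fold change -0.40, s.e. 0.04, adjusted *P*=0.0055 by the exact test). Its level in wild type was 10.5 ± 1.53 CPM at E10.0 and 10.01 ± 1.22 CPM at E10.5 (SD, n=3, log2 fold change -0.07, s.e. 0.16). The fall was called in all 16 alternatives, with log2 fold changes from -0.43 to -0.38. It draws on the same E10.0 mutant libraries as the higher level against wild type. The difference between the stage changes of the genotypes, -0.33 (s.e. 0.17), had an unadjusted *P* of 0.0403 and an adjusted *P* of 0.823 by the same quasi-likelihood test. Among the 10 genes no such difference was called by that test, where 0.186% of all genes were, and 2 of the 10 (*Cdk6* and *Cdkn1c*) had an unadjusted *P* under 0.05, as had 714 of the 12393 genes.

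The D cyclins, *Cdk4* and *Rb1* did not pass between stages in either genotype. *Ccnd3* had the largest of these values, -0.22 in wild type (s.e. 0.12, adjusted *P*=0.318 by edgeR) and -0.24 in mutants (s.e. 0.14, adjusted *P*=0.135 by edgeR), and the latter was called when mutant replicate 1 at E10.0 (-0.32) or mutant replicate 4 at E10.5 (-0.28) was left out. It was -0.16 without mutant replicate 4 at E10.0 and -0.14 without mutant replicate 1 at E10.5, and the value in wild type lay between -0.34 and -0.14 with each library left out. *Ccnd1* had log2 fold changes of -0.04 and -0.18 (s.e. 0.04 and 0.09), *Ccnd2* 0.09 and 0.01 (0.07 and 0.10), *Cdk4* -0.11 and -0.05 (0.05 and 0.08) and *Rb1* 0.07 and 0.07 (0.15 and 0.16). The value of *Cdk4* in wild type, a level 7.03% lower at E10.5, had an adjusted *P* of 0.554 by edgeR. Its wild-type libraries did not overlap between stages (1002 to 1049 CPM at E10.0, 899 to 988 CPM at E10.5). In the other direction, higher at E10.5, 16.6% of all genes separated in wild type. Macrophage markers moved with stage in both genotypes. Their sum was 2.74 to 6.47 CPM in wild type and 7.21 to 8.28 CPM in mutants at E10.0, and 12.9 to 14.3 and 14.1 to 22.6 CPM at E10.5, with all 8 found, none at 0 in every library, and all 5 that were tested called higher in each genotype. Their part in the stage values above was not tested.

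Other regulators of the G1 to S step were examined beside these genes. Of 34, 31 were expressed highly enough to be tested. None was called between genotypes at E10.0 by edgeR's exact test, where 6.61% of all genes were. At E10.5, where 3.73% of all genes were called, 1 was lower in mutants, *Mycn*, a MYC-family factor that drives growth (102 ± 5.49 CPM in wild type, n=3, and 78.2 ± 5.94 CPM in mutants, n=4, log2 fold change -0.38, s.e. 0.07, adjusted *P*=0.002 by edgeR). Between stages in wild type, 2 were higher, the RB-related pocket protein *Rbl2* (0.40, s.e. 0.10) and the E2F partner *Tfdp2* (0.27, s.e. 0.06), and 2 were lower, *Mycn* (-0.48, s.e. 0.06) and *Myc* (-0.57, s.e. 0.10). In mutants, *Rbl2* (0.38, s.e. 0.12) and *Rbl1* (0.29, s.e. 0.09) were higher, and *Mycn* (-0.68, s.e. 0.09), *Myc* (-0.61, s.e. 0.18) and the CDK2 activator *Ccne1* (-0.34, s.e. 0.05) were lower. The list's median change was 0.04 in wild type and -0.05 in mutants, and 10.1% and 19.2% of all genes were called with stage. Without mutant replicates 4 and 5, 2 of the 31 (*Ccne2* and *E2f5*) were called higher in mutants at E10.0, where 16.4% of all genes were called. *E2f4* and *Tfdp1* joined those called lower with stage in mutants, where 17.5% of all genes were called.

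Few replication genes that E2F factors induce were called. Of 29 tested, none was called between genotypes or between stages in wild type, and the licensing factor *Cdt1* was lower at E10.5 in mutants (log2 fold change -0.29, s.e. 0.16, adjusted *P*=0.0876 by edgeR). The list's medians lay between -0.11 and -0.03 in the 4 comparisons. Without mutant replicates 4 and 5, *Cdt1* and *Gins2* were called lower in mutants at E10.0 and lower with stage in wild type, while with stage in mutants *Cdt1* was no longer called and *Dut* was. In that fit, 16.4% of all genes were called between genotypes at E10.0 and 4.27% at E10.5. With stage, 14.9% were called in wild type and 17.5% in mutants. Of 18 p53 targets tested beside *Cdkn1a*, 3 were higher and 2 lower with stage in wild type (10.1% of all genes were called), and 5 were higher and 2 lower in mutants (19.2% of all genes). The 3 with the smallest *P* by the exact test in each genotype were all higher: the pro-apoptotic *Pmaip1* (1.63 and 2.34, s.e. 0.38 and 0.46), *Trp53inp1* (0.61 and 1.02, s.e. 0.13 and 0.17) and the antiproliferative *Btg2* (0.46 and 0.87, s.e. 0.04 and 0.06). The median change of this list with stage was 0.005 in wild type and 0.013 in mutants. Between genotypes, *Ddit4* was lower in mutants at E10.0 (-0.62, s.e. 0.18), and *Pmaip1* (1.103, s.e. 0.18) and *Btg2* (0.32, s.e. 0.04) were higher at E10.5. When mutant replicates 4 and 5 were left out, 4 p53 targets were higher and 3 lower with stage in wild type, and 5 were higher and 4 lower in mutants. Between genotypes, 3 were then lower at E10.0 (*Bax*, *Bbc3* and *Ddit4*) and 3 higher at E10.5 (*Zmat3* with *Pmaip1* and *Btg2*). *Cdkn1c* lies in the *Kcnq1* imprinted domain, and of 7 genes of that domain tested beside it, *Osbpl5* alone was called, higher with stage in mutants (0.62, s.e. 0.14). In the fit without mutant replicates 4 and 5, *Osbpl5* was called higher with stage in wild type too, and *Tssc4* lower in mutants at E10.0.

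The 10 genes varied together only in part over the 14 libraries, which share genotype, stage and library groups. *Cdk4* and *Ccnd3* had the highest Pearson correlation of log2(CPM + 1), 0.88, and both stood higher in mutant replicates 4 and 5 than in the other mutants at both stages (1.08-fold and 1.19-fold at E10.0, 1.14-fold and 1.203-fold at E10.5). *Ccnd1* and *Ccnd2* stood lower there (0.906 and 0.855 of the other mutants' level at E10.0, then 0.843 and 0.850 at E10.5). Of all genes, 56.6% at the earlier and 61.8% at the later stage had these replicates wholly above or below the other mutants. *Cdk6* and *Cdkn1b* ran against each other (-0.80), and *Cdkn1c* and *Cdkn2c* together (0.79). The transcript most like *Cdk6* among all genes tested was *Egfr* (0.95), followed by *Plekha6* and *Mdn1*. *Cdkn1c* was most like *Parp9* (0.97), *Synpo* and *Ap3m2*, and *Cdkn1b* most like *2010011I20Rik* (0.95), *Arsj* and *Spock3*. *Dnajc6* (0.87), *Ovca2* and *Slc2a3* came nearest to *Cdkn1a*, and *Clybl* (0.95), *Krt9* and *Cacnb2* to *Cdkn2c*, all over 14 libraries.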

How the data were processed

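RNA-seq counts were deposited by the authors as raw counts per gene symbol, 1 library per embryo. Per the labels and the study's methods, unstranded polyA libraries were sequenced as single reads of 50 cycles, aligned to mm9 with TopHat2 2.0.13, and uniquely mapped reads were counted with HTSeq without regard to strand. Here, genes of chromosomes X, Y and M (1041 symbols) were excluded, and a gene entered the tests if 3 or more libraries reached 1 CPM, which 12393 genes did, all 10 members among them. After TMM scaling (factors 0.934 to 1.035), pairs of groups were compared by the exact test of edgeR 4.0.16 with dispersions from all 14 libraries (prior.df of 10). Benjamini-Hochberg adjustment covered every gene tested. A gene was called at a fold change of 1.2 or more with an FDR up to 0.1. The interaction of stage and genotype was tested with edgeR's quasi-likelihood test at an FDR of at most 0.1. Standard errors come from replicate variances of log2 CPM. DESeq2 1.42.0 and the other alternatives are given in the closing section. Scripts were tested on simulated data with known changes.

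The members and gene lists were chosen with earlier results of these data known. All members, *Smad4*, the 3 transcripts most correlated with each called member, and the called genes of the lists with the smallest *P* (at most 4 of the G1 to S list and 3 of the others per comparison) were named, while *Rbl2* between stages in mutants and list genes called only without mutant replicates 4 and 5 were named after their values were seen. The same replicate numbers did not pair the genotypes (mean correlation of deviations from group means -0.08 over 4 pairs) or the wild-type stages (-0.28 to -0.08 over 3 pairs). Mutants numbered alike in both stages deviated together (0.57, 0.61 and 0.27 for replicates 1, 4 and 5), though they are separate embryos. All replicates were kept apart, since their counts differed beyond sampling noise (chi-square at least 12.2 times its degrees of freedom). Promoter windows are RefSeq sequence of GRCm38.p6, matched by symbol for 6 of the 10 members. At a depth of 34066930 to 61691258 reads on genes, *Cdkn2c* had 20 to 65 reads per library. *Cdk6* had 306 to 829 and *Cdkn1a* 313 to 654, and counting error was not separated from the spread between embryos. Software was R 4.3.3, Python 3.11.15 and matplotlib 3.10.9.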

Additional observations from a re-analysis of the deposited data

Results flagged for a closer look

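Of 20 groups of 4 mutant libraries (10 genes at 2 stages), none held a library far from the other 3 by Dixon's criterion, by which chance alone picks about 1 group in 20. That criterion looks for 1 extreme library and cannot flag mutant replicates 4 and 5 where they stood apart together. They did so for *Ccnd1*, *Ccnd2*, *Ccnd3*, *Cdk4* and *Cdkn1c* at both stages. In 2 genes, the change with stage differed between the genotypes at an unadjusted *P* under 0.05 in edgeR's quasi-likelihood test. The change of *Cdkn1c* was larger in mutants by 0.38 on the log2 scale (edgeR's unadjusted *P* of 0.00902, adjusted *P* of 0.616), and it was 0.32 to 0.42 with each library left out in turn. That of *Cdk6* differed by -0.33 (edgeR's unadjusted *P* of 0.0403, adjusted *P* of 0.823), or -0.43 to -0.23 with each library left out. Neither passed the adjustment over all genes.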

How the results depend on the processing

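None of the member values reversed a call under any alternative, and the quasi-likelihood test, DESeq2 and RLE size factors left the calls of all 10 genes as they were. At E10.0, the number of members called between genotypes was 2. It was 1 with no filter on low counts (beside 796 of 18612 genes) and 1 with each stage fitted apart (beside 692 of 12040 genes). With each library left out it was 0 to 2, and 254 to 1062 of all genes were then called. At E10.5 the number of members was 0, and it was 1 without mutant replicates 4 and 5 (*Ccnd3*, beside 4.27% of all genes). It was 0 to 2 with each library left out, for instance 1 without mutant replicate 1 (beside 414 of 12367 genes). Between stages, 1 to 2 members were called in wild type and 3 to 5 in mutants with each library left out. In wild type, for instance, 1 was called without E10.0 replicate 2 (beside 484 of 12377 genes) and 2 without E10.0 replicate 1 (beside 1294 of 12384 genes). In mutants, 3 were called without E10.0 replicate 4 (beside 2203 of 12376 genes) and 5 without E10.0 replicate 1 (beside 2732 of 12379 genes). With the genotypes fitted apart, 3 were called in wild type (*Cdkn2c* joined, adjusted *P*=0.0988 by edgeR), beside 1932 of 12118 genes. With a replicate block, 2 genes were called between genotypes at E10.0 (15.8% of all genes, against 6.61% with no block) and 0 at E10.5 (2.26% and 3.73%), with *Ccnd3* lower (log2 fold change -0.35) in place of *Cdkn1b* (-0.21). The block among the mutants only, chosen after seeing the data, changed no call (4 genes, beside 2134 of 12192 genes). The calls of *Cdkn1c* between stages and of *Cdk6* and *Cdkn1b* between stages in mutants held in every alternative run. Of 42 values that were not called, 18 changed sign under at least 1 alternative, all of them without a call, and 11 calls were made under an alternative only. Why single calls were gained or lost was not tested. Depth limits *Cdkn2c* most, with 20 to 65 reads per library, and the next lowest counts were those of *Cdk6* (306 to 829) and *Cdkn1a* (313 to 654).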
